A study of Mus musculus with 6 samples.

Results

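The genes described here are 10 members of the hyaluronan matrix, and they were chosen by symbol from the 33696 genes of the count matrices. The synthases *Has1*, *Has2* and *Has3* make the polymer. *Tnfaip6* encodes TSG-6 and *Ptx3* encodes pentraxin 3, a pair of secreted proteins that help to cross-link it. *Vcan* (versican), *Acan* (aggrecan) and the link protein gene *Hapln1* build the proteoglycan aggregates that hang on it, *Cd44* encodes its main cell surface receptor, and *Cemip* encodes a protein needed to break it down. All 10 genes were found once each in the files. The rule takes them by symbol alone, and the list was drawn up with earlier results of these data known.

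Hyaluronan is a long unbranched sugar chain that is spun out through the plasma membrane by the synthases from UDP-glucuronate and UDP-N-acetylglucosamine. TSG-6 moves the heavy chains of inter-alpha-inhibitor onto the chain, and pentraxin 3 binds these complexes, so that a dense pericellular coat forms. In tendon, hyaluronan is known for its role in the sheath and in gliding, and in cartilage the polymer anchors aggrecan through link protein.

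Cells came from Achilles tendons of *Gli1*-CreERT2; Ai9 mice given tamoxifen, in which the Cre of the *Gli1* locus switches on a red reporter for good. Gli1+ cells are those sorted for the label of the *Gli1* lineage, whatever their present *Gli1* transcript, and Gli1- cells those sorted without the label. The reporter was not measured here, so the purity of the sorts was not tested. Tendons were uninjured, or were taken 7 or 21 days after tenotomy (7 dpi and 21 dpi), an injury that leads to heterotopic ossification. All 6 conditions had 1 library each, made by 3 prime scRNA-seq from several pooled mice, and which mouse a cell came from is not known. Reporter, Cre and tamoxifen were shared by all 6 groups. Because a condition is a single library, conditions were not tested against each other and no p-value is given, and the 95% intervals cover counting error only, not the spread between mice.

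The libraries held 7057 to 10882 kept cells and 53589094 to 107739968 UMIs (unique molecular identifiers, 1 per captured transcript), and no pair of libraries shared more than 33 kept barcodes. In mesenchymal-like cells the transcript of *Gli1* itself was at 13.5 and 9.47 CPM (UMIs per 1000000) in the Gli1+ and Gli1- uninjured libraries respectively. It was at 2.14 and 2.61 CPM at 7 dpi and at 4.23 and 4.55 CPM at 21 dpi, so after injury it was not higher in the Gli1+ than in the Gli1- library. Several features moved with time beside injury. The labels give equal numbers of both sexes, but *Xist*-bearing cells without Y-linked UMIs made up 92.7% and 90.6% of the 21 dpi libraries and under 0.1% of both 7 dpi libraries and of the Gli1- uninjured library, against 68.8% in the Gli1+ uninjured library. Between 7 and 21 dpi, sex as read from these UMIs and time therefore cannot be told apart for any gene in either sort. A list of 13 early response genes that dissociation can raise summed to 29656 and 35468 CPM in uninjured mesenchymal-like cells and to 14091 to 17486 CPM after injury. Of the Gli1+ uninjured cells, 34.8% were mesenchymal-like and 42.6% lymphoid-like, whereas 53.4% to 82.5% of the other libraries were mesenchymal-like. Fewer cells of a type and less RNA per cell cannot be told apart in values summed over a whole library, so levels are given within cell types.

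Mesenchymal-like cells are those of 13 clusters that matched a fixed list of fibroblast genes (*Pdgfra*, *Dcn*, *Lum*, *Col1a1*, *Col1a2*, *Col3a1*), and they numbered 38941 of 57767 kept cells. The 10 genes took no part in the clustering or in the naming. These clusters were split into adventitial fibroblast-like cells (*Pi16*, *Dpp4*, *Ly6a*, *Cd34*), tenocyte-like cells (*Scx*, *Tnmd*, *Fmod*), chondrocyte-like cells (*Col2a1*, *Col9a1*, *Matn3*) and other fibroblast-like cells. Of 27 clusters, 7 had more than 90% of their cells in 1 library, among them 1 fibroblast-like cluster of the Gli1+ 7 dpi and 1 of the Gli1- 7 dpi library. There, condition and library cannot be told apart.

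*Tnfaip6* was high in mesenchymal-like cells of every library and higher after injury than before. Its level was 893 CPM (95% interval 881 to 905) in Gli1+ uninjured, 1659 in Gli1+ 7 dpi and 1669.8 in Gli1+ 21 dpi cells. In the Gli1- libraries it was 1446 CPM (1434 to 1458) uninjured, 2076 at 7 dpi and 1689 at 21 dpi. Both uninjured libraries thus lay below all 4 injured ones, and the Gli1+ uninjured library was the lowest. The Gli1+ libraries of 7 and 21 dpi did not differ beyond counting error, with a log2 ratio of 0.01 (-0.00 to 0.02). In Gli1+ cells the log2 ratio of injured over uninjured was 0.89 (0.87 to 0.91) for 7 dpi, and for 21 dpi it was 0.90 (0.88 to 0.92). Gli1- cells had smaller ratios, 0.52 (0.51 to 0.54) for 7 dpi and then 0.22 (0.21 to 0.24). None of these 4 ratios reached 2-fold, although those of Gli1+ cells passed it under other scalings. In fibroblast-like cells alone, adventitial and other, the 7 dpi ratios were close, 0.52 in Gli1+ and 0.50 in Gli1- cells. At 21 dpi they were 0.58 and 0.27. The part of cell makeup in the difference between the sorts was not tested. After each cell was thinned to 2000 UMIs, 41.0% and 58.4% of uninjured mesenchymal-like cells, Gli1+ first, held a *Tnfaip6* UMI, against 78.9% and 83.8% at 7 dpi and 63.8% and 68.0% at 21 dpi. Before thinning the shares were 60.8% and 75.1%, 93.6% and 96.7%, and 81.3% and 85.9%. In lymphoid-like cells of the Gli1+ uninjured library, which should lack the gene, 0.704% held a UMI after thinning (3.60% before), at a median depth of 7775 UMIs against 8485 in the mesenchymal-like cells beside them.

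**Figure D1:**
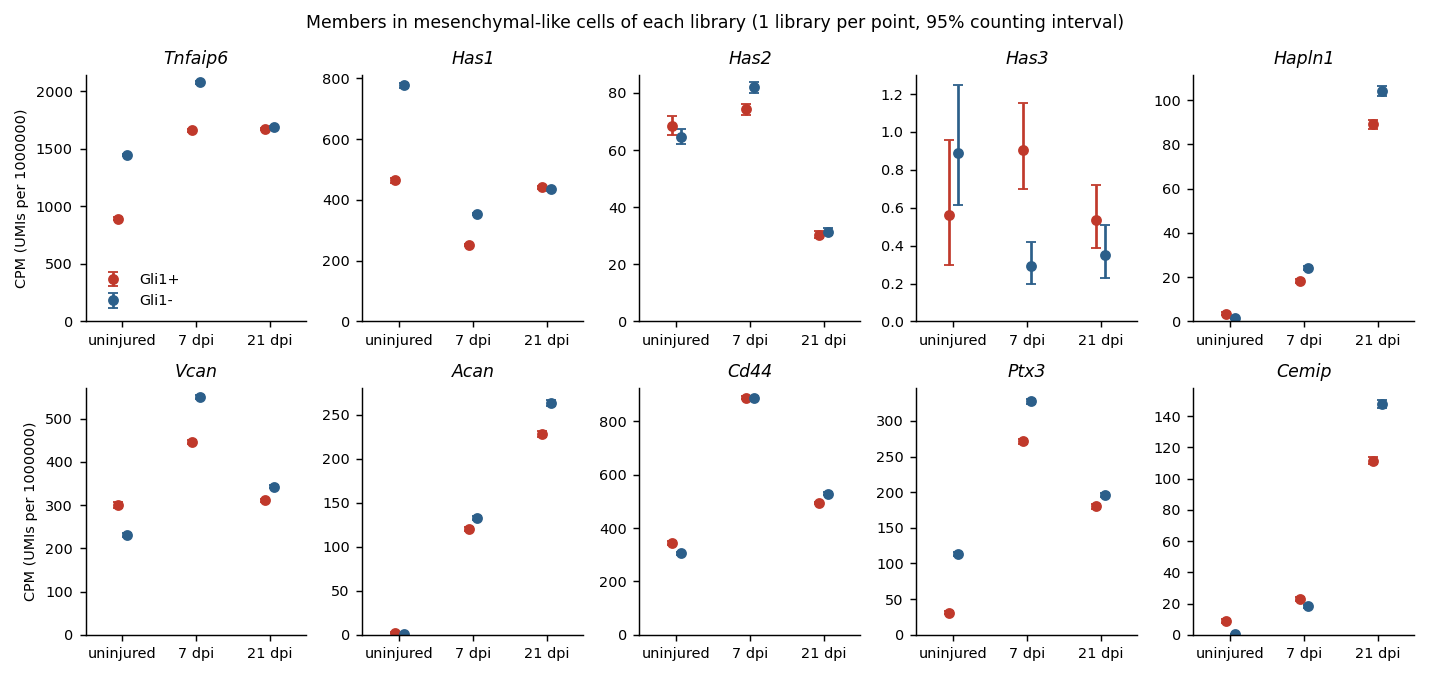
Level of each of the 10 genes in mesenchymal-like cells, in CPM on a linear axis from 0, by time after injury, with Gli1+ libraries in red and Gli1- libraries in blue. Points are single libraries and bars are 95% counting intervals. *Hapln1*, *Acan* and *Cemip* lie near 0 in both uninjured libraries and highest at 21 dpi, *Cd44*, *Ptx3* and *Vcan* peak at 7 dpi, and *Has2* is lowest at 21 dpi.

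Among the named mesenchymal types, *Tnfaip6* was highest in adventitial fibroblast-like cells. Adventitial fibroblast-like cells, a population of loose connective tissue and sheath, held it at 1887 CPM (1850 to 1924) in the Gli1+ and 2249 CPM (2216 to 2283) in the Gli1- uninjured library. After injury they held 3851 CPM at Gli1- 7 dpi, 3679 at Gli1+ 21 dpi and 3656 at Gli1- 21 dpi. The Gli1+ 7 dpi library had only 4 such cells, too few for a level. All 3 injured libraries lay above both uninjured ones, with log2 ratios of 0.96 in Gli1+ cells at 21 dpi and 0.78 and 0.70 in Gli1- cells at 7 and 21 dpi. Other fibroblast-like cells held 863 and 1287 CPM uninjured, 1716 and 2075 CPM at 7 dpi and 1505 and 1567 CPM at 21 dpi, Gli1+ first. These cells lay in different clusters by time, with 941 of 1269 and 4490 of 4635 in cluster 1 uninjured, 5785 of 6215 in cluster 2 at Gli1+ 7 dpi, 5356 of 7428 in cluster 3 at Gli1- 7 dpi, and 4533 of 6204 and 4081 of 6121 in cluster 0 at 21 dpi. Within cluster 1 *Tnfaip6* was at 946 and 1591 CPM in Gli1+ uninjured and 21 dpi cells, and at 1279, 2263 and 1418 CPM in Gli1- cells by time. Over all other fibroblast-like cells the order of the levels, from the Gli1+ uninjured library up to the Gli1- 7 dpi library, was the same as in all mesenchymal-like cells except that Gli1+ 7 dpi stood above both 21 dpi libraries.

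In clusters 9 and 15, the tenocyte-like clusters, *Tnfaip6* was lower. Cluster 9, which led with *Col22a1*, *Chad* and *Coch*, had 176 and 229 CPM uninjured, 747 CPM at Gli1- 7 dpi, and 371 and 591 CPM at Gli1+ and Gli1- 21 dpi. The log2 ratio over uninjured was 1.07 (0.94 to 1.20) at Gli1+ 21 dpi and 1.71 (1.52 to 1.90) and 1.37 (1.17 to 1.57) at Gli1- 7 and 21 dpi, so each of the 3 passed 2-fold. Cluster 15, with 761 of its 774 cells in the Gli1+ 7 dpi library, held 864 CPM. Because *Chodl*, a gene of the satellite cell list, stood among the 10 leading genes of cluster 9 and no tenocyte marker did, tenocyte-like clusters are compared by number. Cluster 0 led with *Wfdc1*, *Matn4*, *Cilp2* and *Tnmd* and stayed under the threshold for the tenocyte name, which was set after seeing the data. It took 46.3% and 37.6% of the 21 dpi libraries, Gli1+ first, 3.001% of Gli1- 7 dpi and under 1% of the other 3, and held *Tnfaip6* at 1648 and 1748 CPM at 21 dpi.

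Outside the fibroblasts *Tnfaip6* was lower. Schwann-like cells, glia of peripheral nerve, were at 554, 769 and 788 CPM in the Gli1- libraries, uninjured first and then by time. At 21 dpi, chondrocyte-like cells were at 385 and 401 CPM, pericyte and smooth muscle-like cells at 434 and 356, and endothelial-like cells at 28.8 and 47.5, Gli1+ first. Of all *Tnfaip6* UMIs of a library, 95.6% to 98.4% came from mesenchymal-like cells. At 7 dpi endothelial-like cells stood at 197 and 264 CPM and epidermal-like cells at 133 CPM, higher than at the other times. How much of that came from free RNA or from the doublets left among the cells was not tested.

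**Figure D2:**
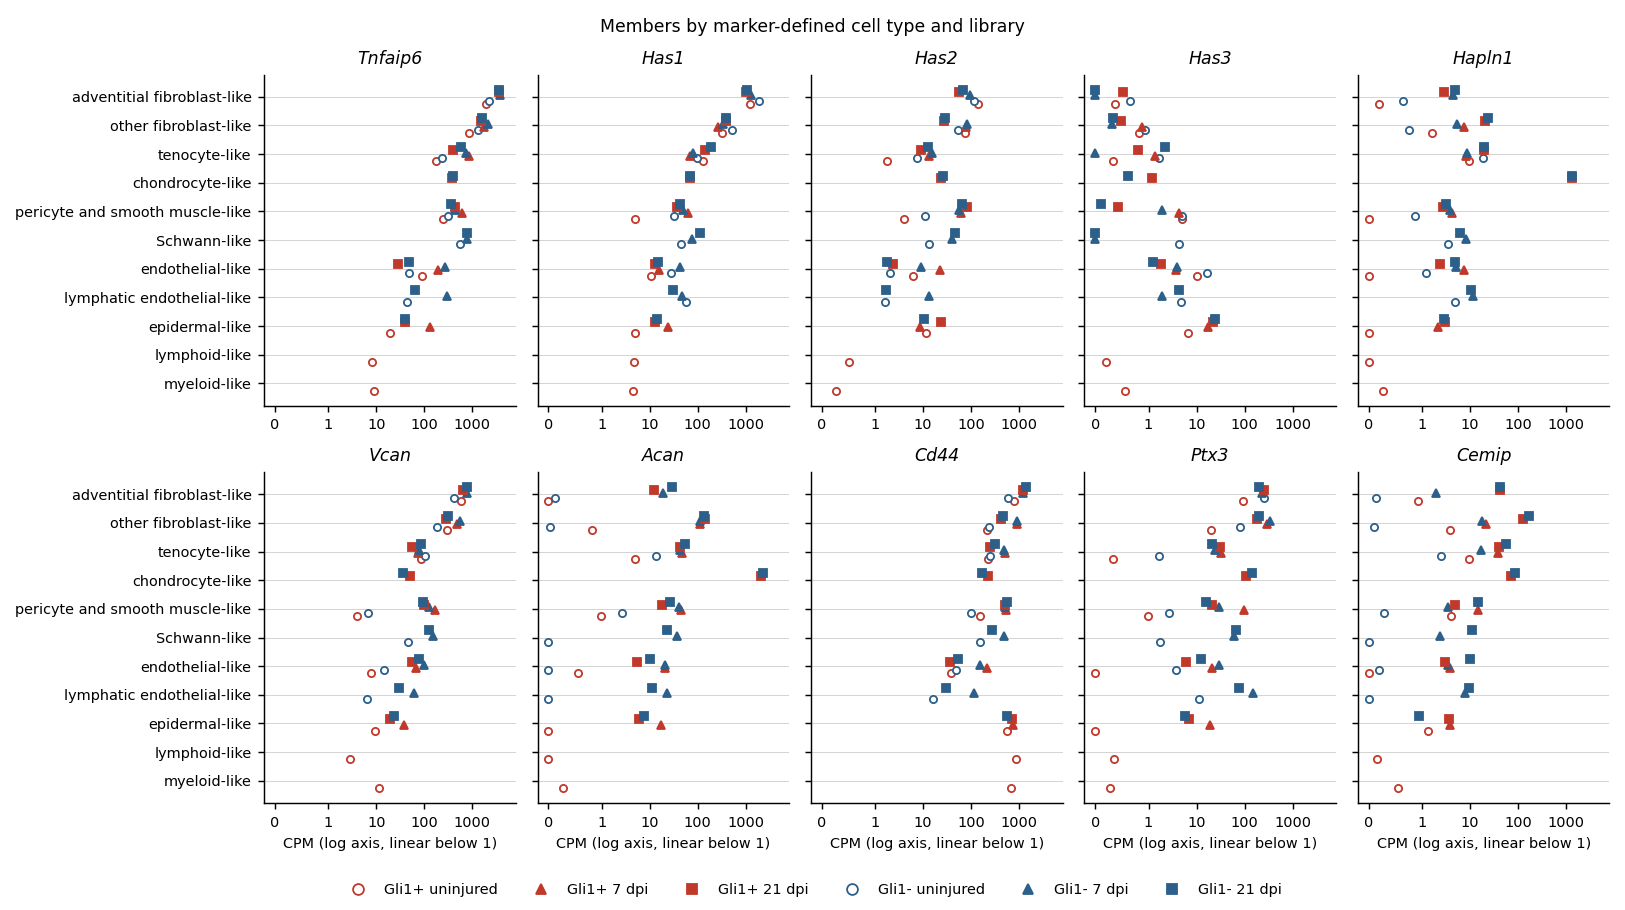
Level of each gene (CPM, logarithmic above 1 and linear below) in 11 marker-defined cell types, with 1 point per library for types of at least 50 cells, open circles for uninjured, triangles for 7 dpi and squares for 21 dpi, red for Gli1+ and blue for Gli1-. *Tnfaip6* and *Has1* are highest in adventitial fibroblast-like cells in every library that has them, *Acan* and *Hapln1* in chondrocyte-like cells, and *Cd44* is also counted in lymphoid-like, myeloid-like and epidermal-like cells, at 551 to 858 CPM.

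*Has1*, the first of the synthases, was lower at 7 dpi than before injury in mesenchymal-like cells of both sorts. Mesenchymal-like cells held *Has1* at 464 CPM (455 to 473) in Gli1+ uninjured and 777 CPM (768 to 786) in Gli1- uninjured libraries. At 7 dpi it was at 252 and 353 CPM, and at 21 dpi at 442 and 435 CPM, Gli1+ first. The lowest library was Gli1+ 7 dpi and the highest Gli1- uninjured, and the Gli1+ 21 dpi library stood close to its uninjured one, with a log2 ratio of -0.07 (-0.10 to -0.04). The ratios at 7 dpi were -0.88 (-0.91 to -0.84) and -1.14 (-1.16 to -1.12), of which the Gli1- one passed 2-fold. Cell makeup changed as well. Adventitial fibroblast-like cells, the type with the highest *Has1* level in uninjured tendon, were 456 of 2453 Gli1+ mesenchymal-like cells uninjured and 4 of 7006 at 7 dpi. In Gli1- cells they were 956 of 5807 and 302 of 8002. The part of this change in the ratios was not tested. Over all kept cells, which take in the lymphoid-like cells of the Gli1+ uninjured library, the Gli1+ ratio turned to 0.24, and in cells thinned to 2000 UMIs the Gli1- ratio was -0.72, short of 2-fold. The early response list was lower beside *Has1*, at 14091 against 29656 CPM in Gli1+ and 14937 against 35468 CPM in Gli1- cells at 7 dpi, and its part in the *Has1* values was not tested. In the thinned cells the share with a *Has1* UMI was 43.5% uninjured and 39.3% at 7 dpi in Gli1- cells. In Gli1+ cells it was 27.6% and 30.05%, against the direction of the level, and in Gli1+ fibroblast-like cells 35.2% and 32.5%.

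*Has1* was concentrated in the adventitial fibroblast-like cells even more than *Tnfaip6* in uninjured tendon. These cells made up 6.46% of the Gli1+ and 8.79% of the Gli1- uninjured library but held 58.2% and 48.6% of its *Has1* UMIs. For *Tnfaip6* the shares were 46.6% and 30.9%. Their *Has1* level was 1202 and 1851 CPM uninjured, 1265 CPM at Gli1- 7 dpi and 1019 and 1043 CPM at 21 dpi, Gli1+ first where both are given. Within these cells the direction of both genes was opposite: the log2 ratio at 21 dpi was 0.96 for *Tnfaip6* and -0.24 (-0.28 to -0.19) for *Has1* in Gli1+ cells, and 0.70 and -0.83 (-0.87 to -0.79) in Gli1- cells. In cluster 1, a fibroblast-like cluster mostly of Gli1- uninjured cells, *Has1* went the other way, with log2 ratios of 1.24 at Gli1+ 21 dpi and 0.23 and 0.33 at Gli1- 7 and 21 dpi. The lower *Has1* of all mesenchymal-like cells therefore did not hold in each cluster.

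*Has2* was lower at 21 dpi than in uninjured tendon. Gli1+ cells held it at 68.4 CPM uninjured, 74.2 at 7 dpi and 30.4 at 21 dpi. Gli1- cells held 64.7, 81.9 and 31.5 CPM at the same times. Both 21 dpi libraries lay below the other 4, with log2 ratios of -1.17 (-1.26 to -1.08) and -1.04 (-1.12 to -0.96) over uninjured. With TMM scaling they were -0.71 and -0.86, so neither passed 2-fold, and over all kept cells the Gli1+ ratio turned to 0.24. At 7 dpi the ratios were 0.12 and 0.34 in mesenchymal-like cells and 1.21 and 0.75 over all kept cells. Cells bearing *Xist* and no Y-linked UMIs gave a ratio of -1.003 in Gli1+ cells. In Gli1- cells sex and time cannot be told apart, since the uninjured library had no such cell. Cluster 17, a neural gene-rich fibroblast-like cluster (*Sorcs3*, *Unc13c*, *Grin2b*), was the richest in *Has2*, with 276 CPM in Gli1+ uninjured and 261 CPM in Gli1+ 21 dpi cells. Pericyte and smooth muscle-like cells stood at 3.96 and 10.8 CPM uninjured and at 80.9 and 65.1 CPM at 21 dpi. Most of these cells lay in different clusters by time: cluster 13 (5.32 CPM over all libraries) held 76 of 139 and 653 of 899 of them in uninjured tendon, and cluster 7 (65.3 CPM) held 559 of 577 and 940 of 1035 at 21 dpi. *Has3* was below 1 CPM in mesenchymal-like cells of all 6 libraries and its levels there are too low to compare. It was counted in endothelial-like cells (10.2 and 16.7 CPM uninjured) and in epidermal-like cells (6.66 to 23.8 CPM), and the latter held 80.9% and 83.4% of its UMIs in the Gli1+ 7 and 21 dpi libraries.

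Promoters are shown for *Tnfaip6*, *Has1* and *Ptx3*, since these 3 members were the ones that held a match to a motif searched for. The windows run from 250 bases before to 10 bases from the annotated start site (RefSeq, GRCm38.p6), read 5′ to 3′ on the gene's strand, with matches in capitals: *Tnfaip6* at chr2:52037863-52038122 on the + strand, *Has1* at chr17:17855179-17855438 on the - strand and *Ptx3* at chr3:66219637-66219896 on the + strand.
Tnfaip6: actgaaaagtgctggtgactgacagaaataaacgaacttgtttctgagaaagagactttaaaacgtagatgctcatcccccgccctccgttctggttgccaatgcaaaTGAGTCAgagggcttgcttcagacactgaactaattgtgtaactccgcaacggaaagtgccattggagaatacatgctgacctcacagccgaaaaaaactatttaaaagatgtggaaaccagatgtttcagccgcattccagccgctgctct
Has1: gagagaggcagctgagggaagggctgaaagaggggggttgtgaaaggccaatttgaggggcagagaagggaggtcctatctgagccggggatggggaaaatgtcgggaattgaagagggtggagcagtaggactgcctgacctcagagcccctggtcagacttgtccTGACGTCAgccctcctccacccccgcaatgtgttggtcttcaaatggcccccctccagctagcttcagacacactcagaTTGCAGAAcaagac
Ptx3: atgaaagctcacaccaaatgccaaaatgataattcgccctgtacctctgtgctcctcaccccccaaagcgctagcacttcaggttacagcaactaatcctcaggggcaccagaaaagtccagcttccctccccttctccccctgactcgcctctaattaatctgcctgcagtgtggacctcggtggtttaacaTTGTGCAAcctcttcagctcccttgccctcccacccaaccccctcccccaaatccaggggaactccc
On both strands, 4 motifs were searched for over 300 bases: TGACGTCA (a cAMP response element, CRE), TGANTCA (AP-1, the Fos and Jun dimer), TTGCNNAA (C/EBP) and GGANTTTCC (NF-kB). *Tnfaip6* held an AP-1 match that starts 142 bases upstream of the start site. *Has1* held a CRE match 83 bases upstream and a C/EBP match that starts 4 bases upstream, and *Ptx3* held a C/EBP match 57 bases upstream. Of 32851 promoters in the table, 7.81% held the AP-1, 1.79% the CRE, 10.8% the C/EBP and 1.25% the NF-kB motif. *Hapln1*, *Vcan*, *Acan*, *Cd44* and *Cemip* held no match to any of the 4, and *Has2* and *Has3* were not analysed here. A match describes letters only and says nothing of binding.

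*Ptx3*, the partner of TSG-6 in the coat, was higher after injury. In Gli1+ mesenchymal-like cells it was at 31.1 CPM (28.8 to 33.4) uninjured, 271 CPM at 7 dpi and 180.0 CPM at 21 dpi. In Gli1- cells it was at 113 CPM (110 to 117), 328 CPM and 196 CPM. The 4 injured libraries lay above both uninjured ones, and the Gli1+ uninjured library was the lowest by a wide margin. Its log2 ratios over uninjured were 3.13 (3.02 to 3.24) and 2.53 (2.43 to 2.64) in Gli1+ and 1.53 (1.49 to 1.58) and 0.79 (0.74 to 0.84) in Gli1- cells, at 7 and 21 dpi. In Gli1- adventitial fibroblast-like cells the level did not move this way, with 252 CPM uninjured, 235 CPM at 7 dpi and 199 CPM at 21 dpi. In Gli1+ adventitial fibroblast-like cells it was at 91.2 CPM uninjured and 249 CPM at 21 dpi. Cluster 3, a fibroblast-like cluster with 5356 of its 5761 cells in the Gli1- 7 dpi library, held 379 CPM there.

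*Vcan* and *Cd44* peaked at 7 dpi in both sorts. *Vcan*, the versican of provisional matrix, stood at 299.6, 445 and 311 CPM in Gli1+ and at 230.2, 550.1 and 343 CPM in Gli1- mesenchymal-like cells (uninjured first, then 7 and 21 dpi). The 7 dpi libraries lay above the other 4, and the ratio passed 2-fold only in Gli1- cells at 7 dpi, where log2 was 1.26 (1.22 to 1.29) against 0.57 (0.53 to 0.61) in Gli1+ cells. *Cd44* was at 344, 889 and 494 CPM in Gli1+ and at 306, 888 and 529.7 CPM in Gli1- cells. Its 7 dpi levels were 1.37 (1.34 to 1.41) and 1.54 (1.51 to 1.56) above uninjured on the log2 scale, both past 2-fold, and its 21 dpi levels 0.52 and 0.79. Over all kept cells the Gli1+ 7 dpi ratio was 0.53, short of 2-fold. *Cd44* was also high outside the mesenchymal cells. In the Gli1+ uninjured library lymphoid-like cells held 58.2% of its UMIs, at 858 CPM, and myeloid-like cells were at 690 CPM. Epidermal-like cells were at 551 to 749.9 CPM in the 4 libraries that had 50 or more of them.

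*Acan*, *Hapln1* and *Cemip* made up a second pattern over all mesenchymal-like cells, low in uninjured tendon and highest at 21 dpi. *Acan*, the large proteoglycan of cartilage, was counted by only 56 and 21 UMIs in uninjured mesenchymal-like cells, which came to 2.41 CPM (1.82 to 3.13) for Gli1+ and for Gli1- to 0.567 CPM (0.351 to 0.866). It was at 120.0 and 132 CPM at 7 dpi and at 229 and 264 CPM at 21 dpi. *Hapln1*, whose product locks aggrecan to hyaluronan, was at 3.49 and 1.35 CPM uninjured, 18.3 and 24.2 CPM at 7 dpi and 89.1 and 104 CPM at 21 dpi. *Cemip* was at 8.83 and 0.432 CPM uninjured, 22.8 and 18.1 CPM at 7 dpi and 111 and 148 CPM at 21 dpi. For each of the 3 genes the libraries stood in the order uninjured, 7 dpi and 21 dpi in both sorts. How many of all genes stand in this order was not counted. Their log2 ratios at 21 dpi were 6.57 (6.19 to 6.97) for *Acan*, 4.67 (4.36 to 5.01) for *Hapln1* and 3.66 (3.46 to 3.86) for *Cemip* in Gli1+ cells. In Gli1- cells they were 8.86 (8.25 to 9.56), 6.27 (5.87 to 6.70) and 8.42 (7.72 to 9.23). Gli1+ cells bearing *Xist* and no Y-linked UMIs gave 6.73, 4.81 and 3.67 at 21 dpi, and Gli1- cells with Y-linked UMIs alone gave 7.73, 4.37 and 5.55 at 7 dpi, for *Acan*, *Hapln1* and *Cemip*. Gli1+ cells with Y-linked UMIs alone gave 5.01 for *Acan* and 1.92 for *Hapln1* at 7 dpi, the lowest of the settings run. All Gli1+ mesenchymal-like cells gave 5.64 and 2.39. The sizes of these ratios depended on the cells summed. The *Cemip* ratio at Gli1+ 21 dpi was 5.31 in fibroblast-like and 5.48 in adventitial fibroblast-like cells alone, and 99 of its 205 UMIs in Gli1+ uninjured mesenchymal-like cells lay in 31 cells of the chondrocyte-like cluster with more bone than cartilage UMIs. The *Hapln1* ratio at Gli1- 21 dpi was 2.93 in adventitial fibroblast-like cells alone. In fibroblast-like cells alone *Acan* gave 7.86 at Gli1+ and 11.1 at Gli1- 21 dpi. These rest on 9 and 2 uninjured UMIs, too few to settle their size.

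**Figure D3:**
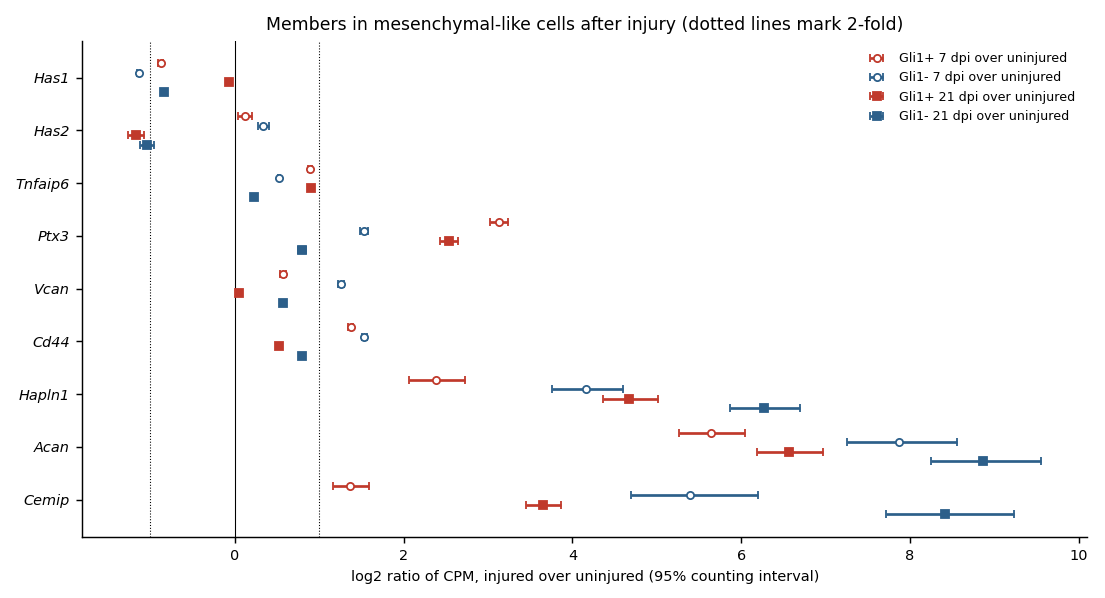
Log2 ratio of the CPM of injured over uninjured mesenchymal-like cells for the 9 members at 10 CPM or more, with Gli1+ in red and Gli1- in blue, open circles for 7 dpi and filled squares for 21 dpi. Bars are 95% counting intervals, and dotted lines mark 2-fold. *Acan*, *Hapln1* and *Cemip* lie past 2-fold on the right in all 4 comparisons, *Has1* lies on the left of 0 in all 4, and *Tnfaip6* lies between 0.22 and 0.90.

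These 3 genes differed in how their UMIs were split between chondrocyte-like and fibroblast-like cells. At 21 dpi chondrocyte-like cells, 306 in the Gli1+ and 360 in the Gli1- library, held *Acan* at 2079 CPM (2036 to 2123) and 2328 CPM (2285 to 2372) and *Hapln1* at 1350.2 CPM (1316 to 1386) and 1335 CPM (1303 to 1368). They made up 3.13% and 3.31% of the kept cells but held 79.8% and 79.9% of the *Hapln1* UMIs and 47.8% and 54.6% of the *Acan* UMIs. Most of the rest of *Acan* came from fibroblast-like cells, where it was at 0.550 and 0.0562 CPM uninjured, from 9 and 2 UMIs, at 114 and 112 CPM at 7 dpi and at 128 and 126 CPM at 21 dpi. After thinning, 13.4% and 13.2% of fibroblast-like cells at 7 dpi and 11.8% and 11.5% at 21 dpi held an *Acan* UMI (33.9%, 33.4%, 28.7% and 29.3% before thinning), against 2.33% and 5.15% of endothelial-like cells at 7 dpi and 1.42% and 2.34% at 21 dpi. Median depths were 9941 and 11643.5 UMIs in the fibroblast-like and 2903.5 and 2226.5 UMIs in the endothelial-like cells at 7 dpi. Uninjured fibroblast-like cells lay mostly in cluster 1, which held *Acan* at 8.28 to 15.3 CPM in the injured libraries where it had 50 cells or more, and 7 dpi cells mostly in clusters 2 and 3, at 116 and 125 CPM. Adventitial fibroblast-like cells were low too, at 12.46 to 29.4 CPM after injury. *Acan* was thus counted at 7 dpi in fibroblast-like cells of both sorts, when chondrocyte-like cells numbered 21 and 45.

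Chondrocyte-like cells were not of a single kind. Their cluster led with cartilage genes (*Snorc*, *Col2a1*, *Col10a1*) and with the bone genes *Bglap*, *Bglap2* and *Ibsp*. Cells with more cartilage than bone UMIs numbered 180 and 237 at 21 dpi and held *Acan* at 2841 and 3091 CPM and *Hapln1* at 1916 and 1804 CPM. The 114 and 106 cells with more bone UMIs held *Acan* at 965 and 372 CPM and *Hapln1* at 532 and 149 CPM. They held *Cemip* at 70.9 and 115 CPM. The uninjured cells of the cluster, 34 and 19, were mostly of the bone kind, 31 and 13, with *Acan* at 23.1 CPM from 16 UMIs in Gli1+ and 3 UMIs in all in Gli1- cells, and *Cemip* at 143 and 38.8 CPM from 99 and 9 UMIs. The cells with more bone UMIs differed by time. *Bglap* was at 35866 and 5003 CPM uninjured and at 1958 and 1375 CPM at 21 dpi, Gli1+ first. *Ibsp* was at 6225 and 2937 CPM and at 40253 and 20335 CPM. Their *Cemip* levels are therefore not compared between times. The cartilage and bone kinds are parts of a range cut at equal UMIs and not types, and 40 of 785 cells lay within 2-fold of the cut. *Has1* and *Vcan* were lower in chondrocyte-like cells at 21 dpi, at 68.7 and 68.9 CPM and at 51.5 and 36.3 CPM, than in the fibroblast-like cells of the same libraries, at 474 and 465 CPM and at 334 and 369 CPM. *Cemip* stood at 71.7 and 87.2 CPM in chondrocyte-like cells, *Ptx3* at 105 and 144 CPM and *Cd44* at 220.1 and 172 CPM.

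Over 90% of the *Cemip* UMIs of each 21 dpi library lay in fibroblast-like cells. Within these cells *Cemip* was highest in cluster 10, at 386 and 503 CPM. This cluster led with *Saa3*, *Mmp10*, *Grem1*, *Il11* and *Mmp13*, among them genes of inflammation and matrix breakdown. Of its 1571 cells, 723 and 779 came from the 21 dpi libraries. Cluster 0 stood at 64.5 and 71.1 CPM and adventitial fibroblast-like cells at 41.8 and 41.5 CPM, both below the chondrocyte-like cells of the same library. At Gli1- 7 dpi the 61 cells of cluster 10 already held 89.5 CPM, against 17.3 CPM over all fibroblast-like cells of that library. *Has1* was low in the same cluster, at 87.0 CPM there and at 91.8 and 92.97 CPM at 21 dpi.

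**Figure D4:**
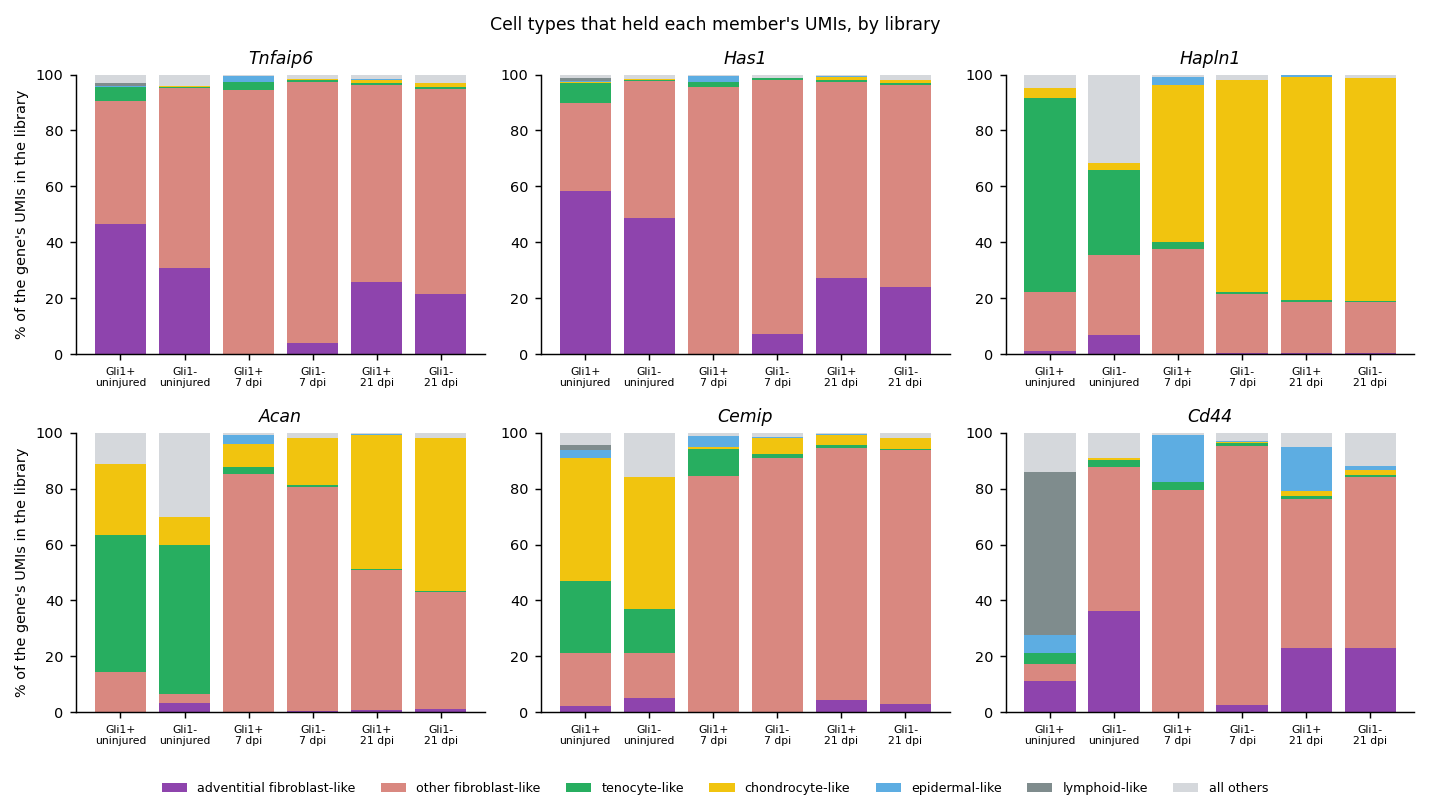
Share of each gene's UMIs (percent of the library's UMIs of that gene) by cell type, in bars stacked to 100%, for 6 genes and 6 libraries. *Hapln1* is mostly in chondrocyte-like cells at 21 dpi, with 79.8% and 79.9%, *Tnfaip6* and *Has1* stay in fibroblast-like cells, and *Cd44* of the Gli1+ uninjured library is mostly in lymphoid-like cells.

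A call was a ratio of 2 or more, or of 0.5 or less, in genes at 10 CPM or more in either library, and it carries no test. In mesenchymal-like cells at 7 dpi, 5 of 9 members at that level passed it in Gli1+ cells, all of them higher (*Hapln1*, *Acan*, *Cd44*, *Ptx3* and *Cemip*), against 26.7% of all 9683 genes at that level, 10.6% higher and 16.1% lower. In Gli1- cells 7 of 9 passed it, *Has1* lower and *Vcan* and the same 5 higher, against 23.1% of 9377 genes, 10.7% higher and 12.4% lower. At 21 dpi 5 of 9 passed in Gli1+ cells, *Has2* lower and *Hapln1*, *Acan*, *Ptx3* and *Cemip* higher, against 18.3% of 9440 genes, 5.65% higher and 12.6% lower. In Gli1- cells 4 of 9 passed, *Has2* lower and *Hapln1*, *Acan* and *Cemip* higher, against 21.2% of 9300 genes, 8.99% higher and 12.2% lower. The median log2 ratio of the members was 1.37, 1.53, 0.90 and 0.79 in this order of comparisons, and that of all genes -0.15, -0.06, -0.25 and -0.11. Both times of a sort shared 1 uninjured library, so they are not independent. TMM scaling, which moves every ratio alike, would add 0.30, 0.11, 0.46 and 0.18 to them.

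The sorts were compared at each time. In uninjured mesenchymal-like cells *Tnfaip6*, *Has1* and *Ptx3* were lower in the Gli1+ than in the Gli1- library, with log2 ratios of -0.69 (-0.72 to -0.67), -0.74 (-0.78 to -0.71) and -1.87 (-1.98 to -1.75). Only *Ptx3* passed 2-fold, 1 of 6 members at 10 CPM or more, against 10.5% of 9418 genes. *Cemip*, *Acan* and *Hapln1* stood higher in the Gli1+ library, but under 10 CPM in both. The sorts differed in cell makeup there, since cluster 9 held 694 of 2453 mesenchymal-like cells in the Gli1+ and 197 of 5807 in the Gli1- library. They differed in sex as well, with *Xist*-bearing cells at 68.8% of the Gli1+ and 0% of the Gli1- library, so over all cells sort and sex cannot be told apart. Cells with Y-linked and no *Xist* UMIs, 595 and 4073, gave log2 ratios of -0.91 for *Tnfaip6*, -0.68 for *Has1* and -2.58 for *Ptx3*. Within adventitial fibroblast-like cells the ratios were -0.25 for *Tnfaip6*, -0.62 for *Has1* and -1.47 for *Ptx3*. At 7 dpi no member passed 2-fold, 0 of 9, against 1.55% of 8844 genes, and their ratios lay between -0.48 and 0.33. At 21 dpi again 0 of 9 passed, against 0.468% of 8550 genes, with ratios from -0.41 for *Cemip* to 0.02 for *Has1*. Both counts after injury stand at the background share and say nothing particular of the members.

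A pathway list held 37 other genes: hyaluronan precursor enzymes, hydrolysis, receptors and binding proteins, lectican proteases, *Has2os* and lubricin. In mesenchymal-like cells 19 or 20 of them reached 10 CPM per comparison with uninjured tendon. At that level 12 passed 2-fold in at least 1 of these comparisons. The share of all genes that did so was not counted. At 7 dpi 3 of 19 at that level were higher and 8 lower in Gli1+ cells, beside 10.6% higher and 16.1% lower among all genes. In Gli1- cells 3 of 20 were higher and 5 lower, beside 10.7% and 12.4%. At 21 dpi 1 of 19 was higher and 5 lower in Gli1+ cells, beside 5.65% and 12.6%, and 1 of 19 was higher and 6 lower in Gli1- cells, beside 8.99% and 12.2%. TMM scaling, for these genes an alternative chosen after seeing the data, raised every ratio by 0.30 at Gli1+ 7 dpi, 0.46 at Gli1+ 21 dpi, 0.11 at Gli1- 7 dpi and 0.18 at Gli1- 21 dpi. At Gli1+ 21 dpi 2 genes were then past 2-fold lower, *Itih5* and *Prg4*, and no longer *Gfpt2*, *Tlr4* and *Has2os*, while *Tlr2* joined *Adamts15* as higher. At Gli1+ 7 dpi 6 were lower, without *Ugdh* and *Has2os*. At Gli1- 21 dpi 5 were lower, without *Uap1*, and *Cemip2* joined *Adamts15*. The shares of all genes past 2-fold under TMM scaling were not computed, so the shares above go with the unscaled counts only. Among the genes that supply the sugar precursors, *Gfpt2*, an entry enzyme of the hexosamine pathway, was at 832, 143 and 314 CPM in Gli1+ and at 896, 206 and 371 CPM in Gli1- cells, uninjured, at 7 dpi and at 21 dpi. *Uap1*, which forms UDP-N-acetylglucosamine, was at 432, 166 and 272 CPM and at 674, 224 and 304 CPM. *Ugdh*, which makes UDP-glucuronate, was at 447, 205 and 242 CPM and at 445, 271 and 249.8 CPM, past 2-fold only at Gli1+ 7 dpi. *Gfpt2*, *Uap1* and *Ugdh* were each lowest at 7 dpi in Gli1+ cells, and the other 4 precursor enzymes on the list did not pass 2-fold in any of the 4 comparisons.

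Genes of other roles went both ways. *Itih5*, a heavy chain of the inter-alpha-inhibitor family, was at 259, 45.5 and 49.4 CPM in Gli1+ and at 400, 74.3 and 58.6 CPM in Gli1- cells. The receptor gene *Tlr4* was at 54.5, 18.6 and 27.1 CPM and at 83.3, 21.2 and 32.0 CPM. Higher at 7 dpi were *Cemip2*, which encodes a cell surface hyaluronidase, at 54.5, 128 and 68.5 CPM and at 37.1, 118 and 73.2 CPM, and *Hmmr*, a hyaluronan-binding gene that dividing cells express, at 1.34, 15.9 and 3.86 CPM and at 0.459, 12.9 and 3.73 CPM. The lectican protease gene *Adamts15* was past 2-fold higher in all 4 comparisons, while *Adamts5* was lower at Gli1+ 7 dpi alone and *Adamts1* at Gli1- 21 dpi alone. *Has2os*, the antisense transcript of *Has2*, was at 33.0, 15.4 and 12.4 CPM and at 43.5, 17.1 and 13.8 CPM. The strand setting of the counting was not given in the sources used here, so its UMIs and those of *Has2* may be mixed. *Prg4*, the lubricin gene, was at 1471, 282 and 340.1 CPM in Gli1+ cells, and at 515, 540.1 and 548 CPM in Gli1- cells.

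**Figure D5:**
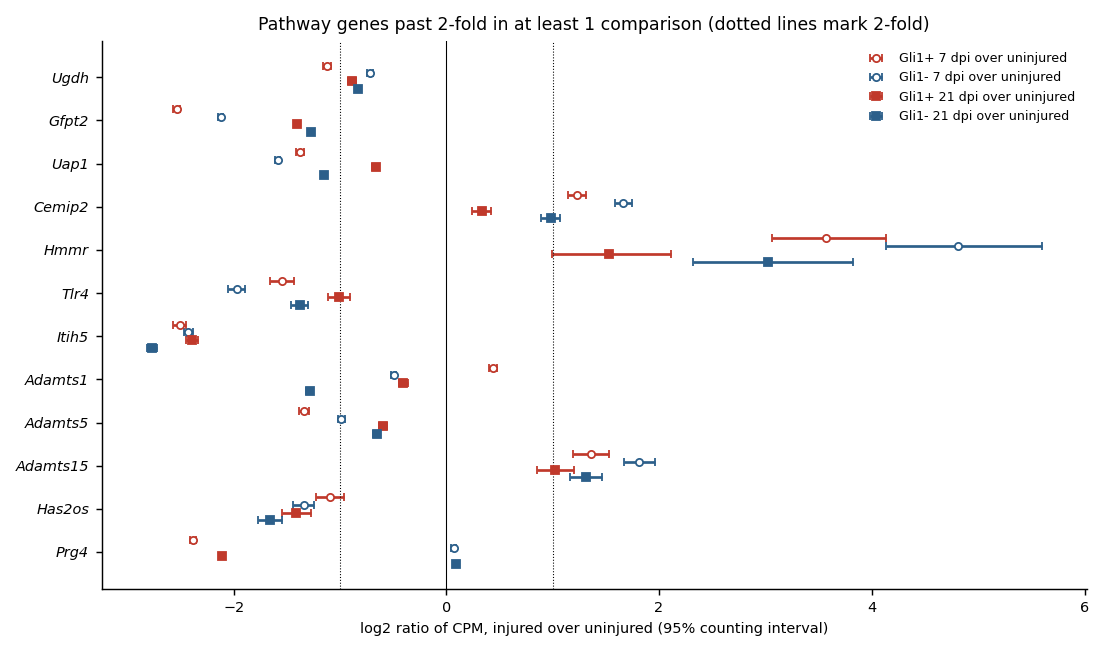
Log2 ratio of the CPM of injured over uninjured mesenchymal-like cells for the 12 pathway genes past 2-fold in at least 1 comparison, with symbols as for the members and 95% counting intervals. *Gfpt2*, *Tlr4*, *Itih5* and *Has2os* lie past 2-fold on the left in all 4 comparisons and *Adamts15* past it on the right in all 4. With TMM scaling *Itih5* and *Adamts15* alone stay past it in all 4, since *Gfpt2* and *Tlr4* fall short at Gli1+ 21 dpi and *Has2os* at both Gli1+ times.

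Members were also compared by their pattern over 48 groups, each a cell type in 1 library with 50 or more cells, by Pearson's r of log2(CPM + 1) across 8492 genes. The groups share libraries and depth, so r is a description. Most like *Tnfaip6* were *Mfap5* (r = 0.92), *Numbl* (0.92), *Sdc2* (0.91), *Dact1* (0.91) and *Col5a1* (0.91), and among the members *Has1* (0.86) and *Vcan* (0.82). *Has1* was nearest to *Lrrn4cl* (0.94), *Clec3b* (0.93), *Pdgfra* (0.93), *C3* (0.92) and *Pi16* (0.92). *Hapln1* followed *Col2a1* (0.92) and *Matn3* (0.91), and *Acan* followed *Col2a1* (0.90), *C1qtnf3* (0.88) and *Ppib* (0.87). *Cemip* was nearest to *Acan* (0.84) and *Mmp13* (0.84), and *Ptx3* to *Lrrc17* (0.87) and *Col3a1* (0.86). *Vcan* was nearest to *Col14a1* (0.90) and *Mfap5* (0.90). *Cd44*, with *Cers6* (0.83), had the weakest nearest gene of the 8 tested.

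In single fibroblast-like cells thinned to 2000 UMIs, *Has1* and *Ptx3* were counted more often in cells with a *Tnfaip6* UMI than in those without. For *Has1* the shares were 42.2% against 27.9% in Gli1+ and 52.6% against 33.2% in Gli1- uninjured cells, 35.5% against 19.5% and 42.9% against 25.6% at 7 dpi, and 49.7% against 31.4% and 49.6% against 32.3% at 21 dpi. For *Ptx3* they were 7.93% against 1.67% and 12.6% against 4.29% uninjured, 28.8% against 20.2% and 32.6% against 21.6% at 7 dpi, and 21.4% against 10.1% and 21.8% against 9.98% at 21 dpi. *Acan* was counted less often beside *Tnfaip6* at 21 dpi, with 10.5% against 14.4% and 10.3% against 14.3%. *Cd44* and *Vcan* were likewise counted more often beside *Tnfaip6* in all 6 libraries, *Cd44* in 38.5% against 24.3% of Gli1+ and 32.8% against 22.1% of Gli1- uninjured cells, and *Vcan* in 39.1% against 35.1% and 28.8% against 21.1%. The direction is thus not particular to *Has1* and *Ptx3*. Cells of several clusters are mixed in these shares.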

How the data were processed

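Cells of Achilles tendon were measured by 3 prime scRNA-seq (Chromium v3) in 6 libraries. The deposited files hold counts, which the authors made with Cell Ranger as UMIs of each gene in each barcode and did not normalize. The submitters' processing notes name Cell Ranger 3.1.0, STAR and mm10, whereas the file header names cellranger 9.0.0, and 1735 of 33696 gene IDs are not in GENCODE M21, so the release stays uncertain and no gene coordinates come from the files.

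Barcodes were kept with at least 200 genes, 1000 UMIs, a log10 gene to log10 UMI ratio of 0.7, and at most 5% mitochondrial and 5% hemoglobin UMIs. Scrublet in scanpy 1.11.5 scored doublets, and the highest-scoring 0.8% per 1000 cells were removed. All libraries were clustered together (2000 variable genes, 30 principal components, 20 neighbors, Leiden at resolution 0.5) without the members, markers, *Xist* or Y-linked genes. A cluster took the name of the marker list with a mean log2 ratio of at least 2 and 3 raised markers, and fibroblast genes at a mean of at least 1 made it mesenchymal-like. These thresholds were set after seeing the data.

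Levels are summed UMIs per 1000000 with exact Poisson 95% intervals, shares have exact binomial intervals, and log2 ratios have exact conditional binomial intervals. The intervals of levels and ratios were run on simulated Poisson counts alone. That is the model they assume, so uneven counts between cells were not covered. Types with under 50 cells in a library give no level, except the split of the chondrocyte-like cluster, whose cell numbers are given beside it. Intervals hold counting error only. edgeR 4.0.16 in R 4.3.3 gave TMM factors alone. Named were all members, pathway genes past 2-fold at 10 CPM or more in at least 1 comparison with uninjured tendon, and the genes of highest Pearson r. Clusters named by number were chosen after their values were seen. Members and lists were chosen with earlier results of these data known.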

Additional observations from a re-analysis of the deposited data

Results flagged for a closer look

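For *Has2*, a hyaluronan synthase gene, the ratios at both times after injury had opposite signs in mesenchymal-like cells. Its log2 ratio over uninjured was 0.12 at 7 dpi and -1.17 at 21 dpi in Gli1+ cells, and 0.34 and -1.04 in Gli1- cells. The sign at 7 dpi did not hold throughout, with -0.30 in Gli1+ fibroblast-like and -0.26 in Gli1- adventitial fibroblast-like cells alone, and over all kept cells the 7 dpi ratios were 1.21 and 0.75. Both times were compared with 1 uninjured library per sort, and the difference was not tested.

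For 4 members the log2 ratio of Gli1+ over Gli1- mesenchymal-like cells changed sign between times, each with a counting interval clear of 0, and with 1 library per condition none of these differences was tested. *Vcan*, which encodes versican, was at 0.38 uninjured, -0.31 at 7 dpi and -0.14 at 21 dpi. *Has1* was at -0.74 uninjured, -0.48 at 7 dpi and 0.022 at 21 dpi. The last turned to -0.03 in adventitial fibroblast-like cells alone. *Cd44*, the receptor gene, was at 0.17 uninjured and -0.10 at 21 dpi, but TMM scaling gave -0.08 uninjured and so no change of sign. Over all kept cells the 21 dpi value was 0.087. The immune cell gene *Ptprc* was at 10.5 CPM in Gli1+ and 0.108 CPM in Gli1- uninjured mesenchymal-like cells. Its bearing on *Cd44* was not tested. *Cemip* was at 0.33 at 7 dpi and -0.41 at 21 dpi, the latter 0.0092 in adventitial fibroblast-like cells alone. *Vcan* uninjured turned to -0.53 over all kept cells.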

How the results depend on the processing

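No paired analysis was made, because the labels carry no replicate numbers. A fit of sort and time without an interaction over the 6 libraries was not made. With 1 library per condition no library was left out. Of 60 member ratios at 10 CPM or more, 22 were past 2-fold, and 20 of these had the same sign under every alternative run. The exceptions were *Has2* at Gli1+ 21 dpi, 0.24 over all kept cells, and *Ptx3* at Gli1- 7 dpi, -0.10 in adventitial fibroblast-like cells alone. Of the ratios not past 2-fold, 20 changed sign under an alternative. The cause was not tested.

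The *Tnfaip6* log2 ratio over uninjured stayed above 0 throughout. At Gli1+ 7 dpi it was 1.20 with TMM scaling, 0.86 with cells chosen by marker UMIs without clusters, 1.04 thinned, 1.01 in cells with Y-linked UMIs, 1.99 over all kept cells, 1.04 as a mean over cells and 0.52 in fibroblast-like cells alone. At Gli1+ 21 dpi it was 1.37 with TMM, 0.82 without clusters, 1.04 thinned, 0.79 in cells with *Xist*, 2.03 over all kept cells, 1.03 as a mean over cells, 0.58 in fibroblast-like and 0.96 in adventitial cells alone. At Gli1- 7 dpi it was 0.63 with TMM, 0.54 with no cell filters, 0.54 with no doublet removal, 0.50 without clusters, 0.77 thinned, 0.44 in cells with Y-linked UMIs, 0.89 over all kept cells, 0.80 as a mean over cells, 0.50 in fibroblast-like and 0.78 in adventitial cells alone. At Gli1- 21 dpi it was 0.41 with TMM, 0.12 without clusters, 0.50 thinned, 0.39 over all kept cells, 0.51 as a mean over cells, 0.27 in fibroblast-like and 0.70 in adventitial cells alone. The setting without clusters left out cells with a UMI of *Ptprc*, *Pecam1*, *Cdh5*, *Krt5* or *Krt14* after thinning. It kept 1315 cells at Gli1+ 7 dpi, against 7006 mesenchymal-like cells in the main run, and the cause of this loss was not tested.

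The count of members past the fold was 7 at Gli1- 21 dpi with a fold of 1.5, and 2 at Gli1- 7 dpi in adventitial cells alone. Between uninjured sorts it was 4 over all kept cells, 4 at 1 CPM or more and 3 with a fold of 1.5, and at 21 dpi 1 in adventitial cells alone. The shares of all genes past the fold at these settings were not computed, so the counts cannot be set against a background. Fibroblast-like and adventitial cells alone were chosen after seeing the data. Cells with *Xist* gave no value at 7 dpi or for Gli1- cells over time, cells with Y-linked UMIs none at 21 dpi, and adventitial cells none at Gli1+ 7 dpi. Low uninjured counts of *Acan*, *Hapln1* and *Cemip* limit the size of their ratios.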
